A study of Mus musculus with 24 samples.

Results

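The 10 genes described here were selected on the size of their difference between the distal and proximal ends of the jaws of Alk5 knockout mouse embryos: Masp1, Slitrk4, Gbx2, Dach2, Adarb2, Gpr25, Gria1, Asb4, Sim2 and Greb1l. They are 10 of the 18193 genes that had a probe set annotated to a single symbol. All 10 were among the 13837 genes that passed the filter on dim genes. Adarb2 passed only through arrays it was chosen for and Gbx2 only with knockout arrays, since each had 1 control array above the filter level. The mandible and maxilla were dissected at embryonic day 12.5 and each was cut into its distal and proximal ends. Total RNA of every end was hybridised to Affymetrix Mouse430_2 arrays, with 2 control and 4 knockout arrays for each of the 4 parts (24 arrays in all). Knockout embryos came from crosses of Wnt1-Cre;Alk5 fl/+ with Alk5 fl/fl mice on a C57B6 background, and a cleft palate with a defect of the skull vault marked them as mutants; controls were littermates whose own alleles the labels do not give. Alk5 (gene symbol Tgfbr1) is a type I receptor for TGF-beta. Wnt1-Cre acts in the neural crest, so epithelium, muscle, vessels and blood cells of the knockout jaws keep the receptor. The labels do not say which arrays share an embryo or whether embryos were pooled, so the p-values measure only the spread between these samples.

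The end differences in the knockout jaws chose the genes, so their values there are a description without a test. Control arrays took no part in the choice, and the control ends are therefore where the genes could be tested. Adarb2 and Gbx2, which passed the filter on dim genes only with knockout arrays, are given there without a test. All values are log2 levels from RMA, and every difference is distal minus proximal on that log2 scale, so that a negative value means a higher level in the proximal end. In pieces of tissue, fewer cells of a type and less RNA per cell cannot be told apart.

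The facial primordia are built from neural crest mesenchyme that is told its position along the proximal to distal axis by signals from the overlying epithelium. BMP and endothelin signals favour a distal program that includes Hand2 and Msx1, whereas FGF signals and the Dlx genes favour proximal expression of genes such as Barx1. The distal mandible forms the chin region and incisors, and the proximal mandible the molar region and the jaw joint. In the maxilla the position along this axis is matched by an anterior to posterior order of gene expression in the palate, with Alx1 and Pax3 toward the front of the face and Barx1 and Meox2 toward the back.

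The 10 genes have different roles. Gbx2 is a homeobox transcription factor known from the boundary of midbrain and hindbrain and from the pharyngeal arches. Sim2 is a transcription factor with bHLH and PAS domains, and its loss in mice causes a cleft secondary palate. Dach2 is a cofactor of the Dachshund family that works with Eya proteins. Adarb2 is a binding protein for double-stranded RNA of the ADAR family. Slitrk4 is a membrane protein with leucine-rich repeats that acts in neurite outgrowth and synapses, Gria1 is a subunit of AMPA-type glutamate receptors, and Gpr25 is a G protein-coupled receptor. Masp1 encodes serine proteases of the lectin pathway of complement and is mutated in a human syndrome with facial clefting. Asb4 carries ankyrin repeats and a SOCS box and recruits substrates to a ubiquitin ligase, and Greb1l is related to the oestrogen-regulated Greb1 and is needed for kidney and inner ear development.

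Promoter sequence was looked at for 5 of the 10 genes, from a RefSeq table (GRCm38.p6) that covers 250 bases before and 50 bases after each start. The 4 printed below belong to genes that were higher in the proximal end of the knockout mandible, and 3 of them, Gbx2, Adarb2 and Gpr25, had the most alike profiles over the arrays. The search was for the homeodomain core TAATTA and the E-box CANNTG, each of which reads the same on both strands; matches are in capitals. The regions are chr1:89931127-89931426 on the minus strand for Gbx2, chr13:8202616-8202915 on the plus strand for Adarb2, chr1:136260877-136261176 on the minus strand for Gpr25 and chrX:113297260-113297559 on the plus strand for the first of 2 entries for Dach2.
Gbx2: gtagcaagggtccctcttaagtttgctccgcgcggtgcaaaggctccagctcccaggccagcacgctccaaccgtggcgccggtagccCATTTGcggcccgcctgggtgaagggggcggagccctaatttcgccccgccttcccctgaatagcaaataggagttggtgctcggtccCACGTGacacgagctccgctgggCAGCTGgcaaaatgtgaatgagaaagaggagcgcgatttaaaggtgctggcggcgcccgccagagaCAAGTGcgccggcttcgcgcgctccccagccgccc
Adarb2: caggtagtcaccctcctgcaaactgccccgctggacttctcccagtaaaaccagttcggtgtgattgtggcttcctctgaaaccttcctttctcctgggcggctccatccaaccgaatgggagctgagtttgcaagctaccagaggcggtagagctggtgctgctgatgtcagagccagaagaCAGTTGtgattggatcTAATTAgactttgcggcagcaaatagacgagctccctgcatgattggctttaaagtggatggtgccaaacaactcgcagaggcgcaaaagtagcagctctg
Gpr25: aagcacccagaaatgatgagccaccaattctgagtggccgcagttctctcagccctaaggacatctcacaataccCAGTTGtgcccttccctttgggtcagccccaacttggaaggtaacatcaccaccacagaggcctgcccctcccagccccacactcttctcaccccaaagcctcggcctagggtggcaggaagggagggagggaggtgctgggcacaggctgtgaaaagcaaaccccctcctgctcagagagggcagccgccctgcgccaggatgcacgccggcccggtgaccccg
Dach2: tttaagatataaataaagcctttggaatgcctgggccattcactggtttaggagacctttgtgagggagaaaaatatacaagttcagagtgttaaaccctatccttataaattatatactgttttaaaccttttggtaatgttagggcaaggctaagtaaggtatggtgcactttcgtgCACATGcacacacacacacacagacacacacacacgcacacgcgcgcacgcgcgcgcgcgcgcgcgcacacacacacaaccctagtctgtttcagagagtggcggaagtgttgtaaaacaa
Of these 4 windows only that of Adarb2 held TAATTA, 1 match, against 5.29% of all 32851 promoter windows of this length. CANNTG was found in all 4, with 4 matches for Gbx2 and 1 each for Adarb2, Gpr25 and Dach2, against 72.3% of all windows. The second Dach2 entry held 0 matches of either motif, and the 2 entries of Asb4, not printed, held 1 and 0 of TAATTA and 1 and 2 of CANNTG. These letters are descriptions of the windows and nothing was measured on them here.

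The arrays fall into 3 sets that hold 1 genotype each. The excess of 3′ over 5′ signal in the control probe sets for Gapdh and beta-actin, which grows as RNA or its labelling gets shorter, was 0.13 to 0.22 on the control arrays, 0.71 to 1.50 on knockout arrays numbered 1 and 2, and 0.00 to 0.16 on those numbered 3 and 4. The hybridisation controls also read apart, 9.79 to 10.83, 11.07 to 12.01 and 8.76 to 9.25, and genotype cannot be told apart from the set of arrays. Tgfbr1 itself read 11.98 to 12.69 on the control arrays, 12.07 to 12.64 on knockouts 1 and 2 and 12.32 to 12.52 on knockouts 3 and 4; whether its probe set lies in the deleted part was not checked here. All 8 control arrays were male by Xist and Kdm5d, and each knockout set held 4 female arrays of 8. In the maxilla, knockout arrays numbered 1 join a female proximal with a male distal array, and those numbered 2 a male proximal with a female distal array. A maxilla pair below therefore means arrays matched by number only, and the SD over such pairs is not a spread within embryos. The 10 facial mesenchyme genes on the marker list, such as Prrx1 and Twist1, were all measured, and their mean level lay between 10.43 and 11.48 on every array. Precision throughout is limited by how few arrays each group has.

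In the control mandible the 2 numbers ran in opposite directions between the labelled ends for most genes. Alx1, a homeobox gene of the frontonasal face, read 5.52 on the array labelled proximal number 1 and 11.19 on that labelled distal number 1, but 11.64 on the array labelled proximal number 2 and 5.65 on that labelled distal number 2. In the knockout mandible Alx1 was 5.26 to 6.42 on the 4 proximal arrays and 9.91 to 11.79 on the 4 distal arrays, with no overlap. Number 1 of the controls thus runs the way of the knockouts and number 2 the other way. Pax3, a paired box factor of the same region, differed by 4.28 in number 1 and by -4.24 in number 2. Hand2, the distal mandible regulator, differed by 1.92 and -1.57, and the proximal gene Barx1 by -1.08 and 1.33. Of the 6 measured genes on the list of distal mandible patterning, 6 were above 0 in number 1 (median 1.23) and 6 were below 0 in number 2 (median -1.62). The proximal list was mixed. Of its 7 measured genes 5 were below 0 in number 1 (median -0.82) and 5 above 0 in number 2 (median 1.18). Pou3f3, at 1.00 and -0.64, turned the other way from Barx1. Shox2 was above 0 in both numbers, at 0.16 and 0.62, and Eya1 below 0 in both, at -0.03 and -0.69.

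Across all 13837 genes, which are not independent, the end differences of control number 1 correlated with the knockout mean at r = 0.48 and those of number 2 at r = -0.56, and the control numbers with each other at r = -0.78. In the mandible the 4 knockout numbers all correlated above 0 with each other, from 0.14 to 0.69. In the maxilla control number 1 correlated with the knockout mean at 0.47 and number 2 at -0.29, the control numbers with each other at -0.35, and the knockout numbers with each other from -0.08 to 0.30. The 2 control numbers had opposite signs in 73.1% of genes in the mandible and in 55.7% in the maxilla. Markers of other tissues moved with the control mandible numbers too. The 10 measured skeletal muscle genes had a median end difference of -1.19 in number 1 and 1.50 in number 2, and the 10 measured epithelial genes 0.66 and -0.66. Whether labels or dissections differ here was not tested. Control mandible values are therefore given by number, and every mean over both numbers averages opposed values. The fit takes 1 spread per gene over all groups. These opposed arrays therefore also enter the errors and p-values of the other end and jaw comparisons.

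**Figure D1:**
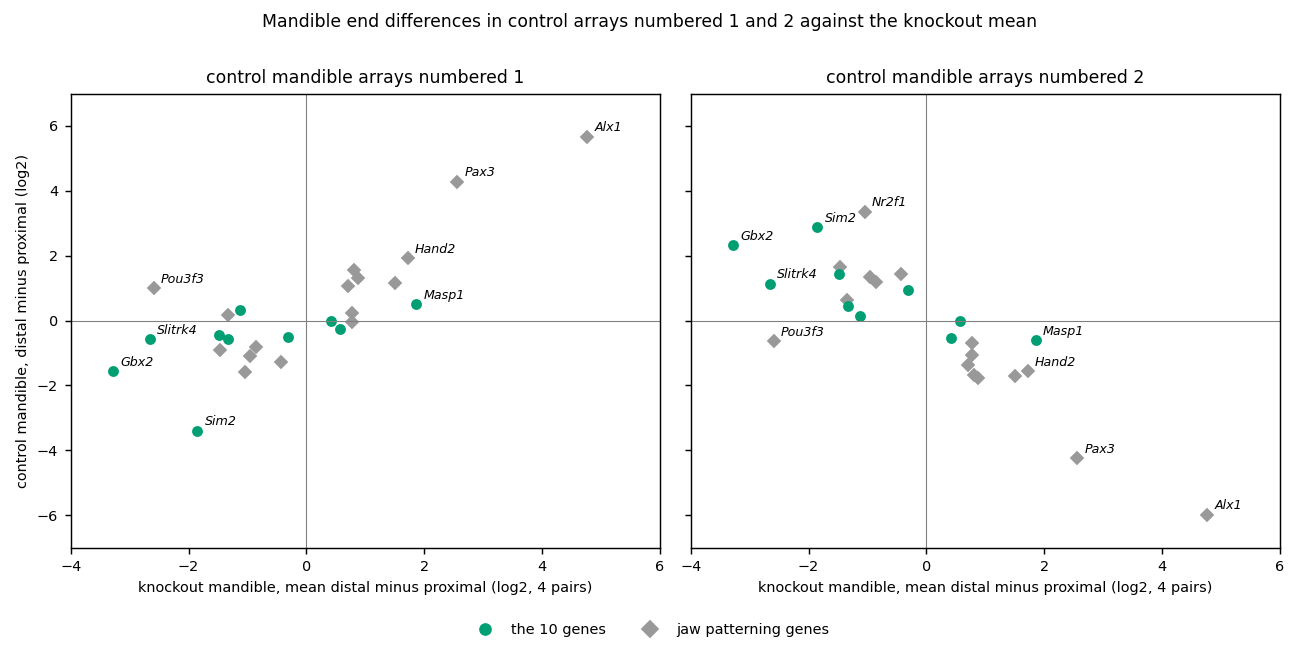
End difference (distal minus proximal, log2) in the control mandible arrays numbered 1 (left) and 2 (right) on the y axis against the mean knockout end difference of 4 pairs on the x axis; green circles are the 10 genes and grey diamonds the jaw patterning genes, 1 point per gene. Alx1 lies at 5.67 on the left and -5.99 on the right, and none of the 10 genes on the right has the sign it has in the knockouts.

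Of the 10 genes, 7 had the sign of the knockout mean in control mandible number 1 and 0 of 10 in number 2. Over all genes these shares were 59% and 39.8%, and over the 145 other genes that differed between the knockout mandible ends 71% and 22.8%. The 7 genes that had the knockout sign in number 1 were also the 7 whose sign turned between the control numbers: Masp1, Slitrk4, Gbx2, Dach2, Adarb2, Gria1 and Sim2. Their 7 of 10 is close to the 73.1% of all genes that turned. These counts include Gbx2 and Adarb2, whose control values are given without a test.

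No gene of the 13837 was called between the control mandible ends (0%, limma with Benjamini-Hochberg adjustment at 0.05; 36 genes at an unadjusted p below that level). The same held for the control maxilla ends (0%, 401 unadjusted), for control ends over both jaws (0%, 149 unadjusted) and for the difference of the control end effect between the jaws (0%, 139 unadjusted). Between the control jaws 95 genes were called (0.687%), none of them among the 10. In the knockouts, where the genes were chosen, 151 genes were called between the mandible ends (1.09%; 41 genes with the replicate number as a block) and 9 between the maxilla ends (0.065%; 5 genes with the block). Of the jaw patterning lists, Hand1 was higher distally and Pou3f3 lower distally in the knockout mandible, by 0.77 and -2.59. The Pou3f3 value was carried by pairs 1 and 2, at -5.37 and -4.13 against -0.57 and -0.31 in pairs 3 and 4, and its ends overlapped. Barx1, Dlx1 and Dlx2 were lower distally in the knockout maxilla, by -2.55, -2.76 and -1.58. The other measured genes of these lists, 5 of 6 distal and 6 of 7 proximal mandible genes in the mandible and 4 of 7 proximal ones in the maxilla, did not pass. Among them Hand2 and Bmp4 had no overlap between the knockout mandible ends, at 1.72 and 1.50, while Msx1, Msx2 and Alx4 overlapped. Alx1 was not called either, at 4.77 without overlap. The spread in the test includes the opposed control mandible arrays, 5.67 and -5.99 for Alx1, so not passing does not describe the knockout ends alone.

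In the knockout mandible, the arrays of the ends did not overlap for 8 of the 10 genes. Of these, 6 were higher proximally (Slitrk4, Gbx2, Dach2, Adarb2, Gpr25 and Sim2) and 2 distally (Masp1 and Greb1l); 3.87% of all genes had no overlap there and 23.1% the same sign in all 4 pairs. In the knockout maxilla 4 genes did not overlap (Gria1, Asb4, Sim2 and Greb1l), all higher proximally, against 1.48% of all genes without overlap and 9.66% with 1 sign in all pairs. These shares follow from how the genes were chosen. Sim2 and Greb1l were the genes without overlap in both jaws, Sim2 in the same direction and Greb1l in opposite directions. Among the marker lists, 8 of 8 macrophage genes and 10 of 10 neuronal genes measured lay below 0 between the knockout mandible ends, with medians of -0.71 and -0.41, none passing the test. All macrophage genes did so in every pair, but the neuronal genes for 7, 7, 8 and 5 of 10 in pairs 1 to 4. Cartilage, facial mesenchyme and skeletal muscle genes each lay below 0 for 8 of 10, with medians of -0.10, -0.19 and -0.25. On each of the cartilage and facial mesenchyme lists 1 gene passed. Endothelial genes lay above 0 for 8 of 8 (median 0.20), of which Cldn5 passed at 0.71, and epithelial genes for 9 of 10 (median 0.21, none passing). Between the knockout maxilla ends 9 of 10 skeletal muscle genes lay below 0 (median -1.20, none passing), with pair medians of -0.79, -0.81, -0.15 and -2.54, the direction of the 4 genes without overlap there. Below 0 there were also 8 of 8 endothelial (median -0.16), 8 of 10 cartilage (-0.19) and 3 of 4 glial and crest genes (-0.67). Above 0 were 5 of 5 brain and eye (median 0.88), 9 of 10 epithelial (0.49) and 6 of 6 erythroid genes (0.13). None of these passed, and in some pairs the endothelial, cartilage and erythroid medians had the other sign. Macrophage, neuronal and facial mesenchyme genes were split. The mean level of the muscle list was 6.33 to 9.77 on the proximal and 6.18 to 7.88 on the distal knockout maxilla arrays. The part of such cells in the values that follow was not tested.

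**Figure D2:**
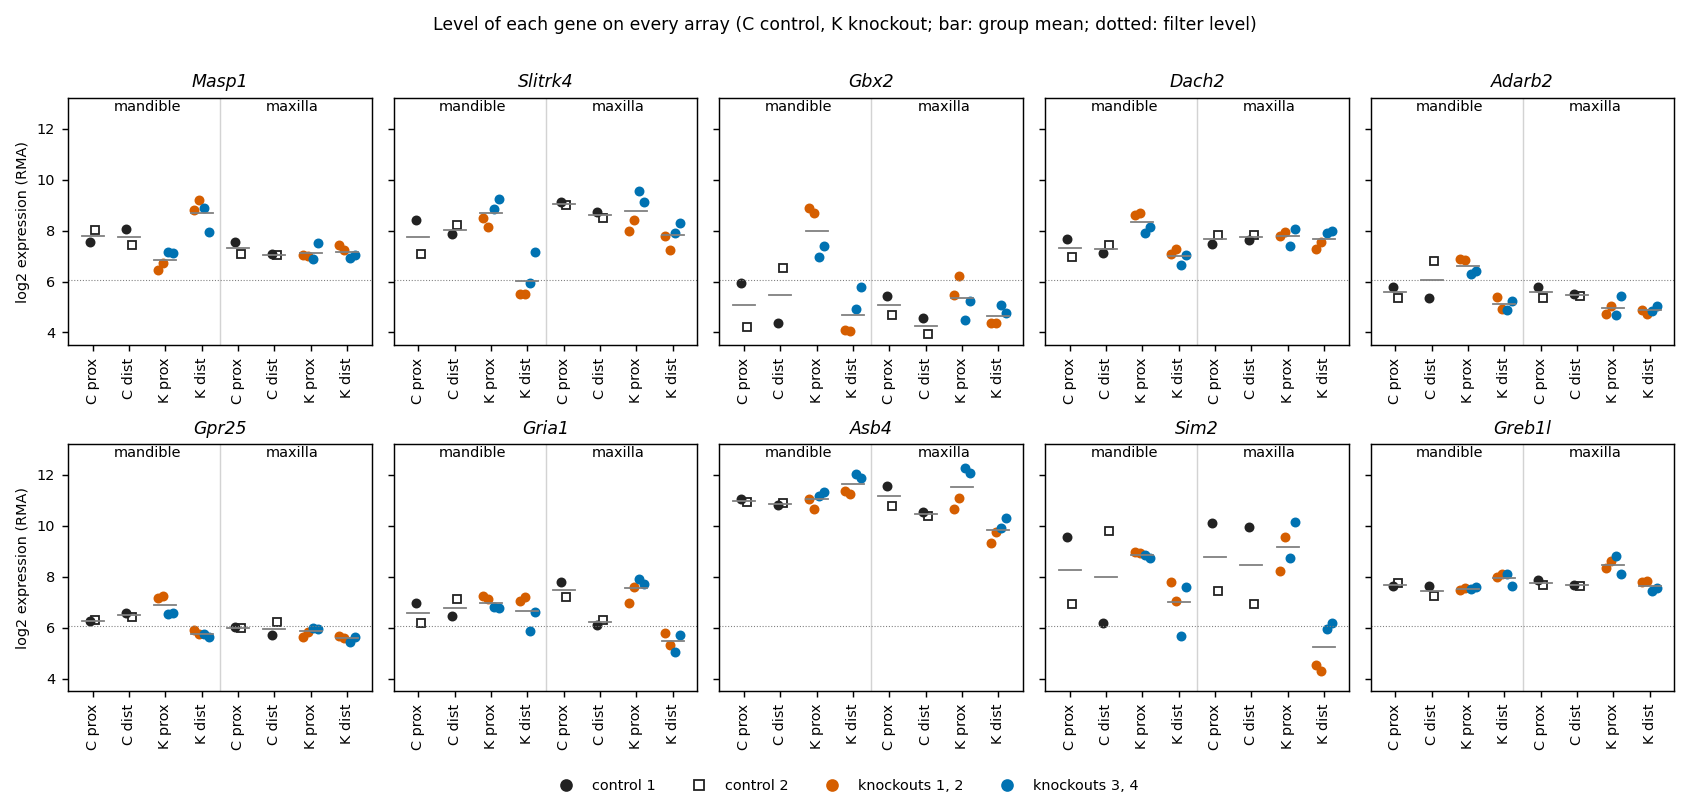
Log2 expression (RMA) of each of the 10 genes on all 24 arrays, by jaw, genotype (C control, K knockout) and end (prox proximal, dist distal); black circles are control number 1, open squares control number 2, orange knockouts 1 and 2, blue knockouts 3 and 4, bars are group means and the dotted line is the level of 6.07 used as a filter. Gbx2 in the proximal knockout mandible reaches 8.88 while most of its other arrays lie under the line, and the control mandible symbols of Sim2 lie far apart, from 6.18 to 9.81.

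Gbx2 had the largest mandible difference of the 10. Its proximal knockout arrays numbered 1 to 4 read 8.88, 8.70, 6.97 and 7.40, and its distal arrays 4.08, 4.04, 4.91 and 5.78. All 4 proximal arrays were above all distal ones, and the mean difference was -3.28 ± 1.68 (SD over 4 pairs of like number). By size this ranked second of all genes after Alx1 and just before Emx2 at -3.20. All 4 distal arrays lay below the filter level of 6.07, so the value is set against a dim end and no fold is given. The size differed between the array sets: -4.80 and -4.66 in pairs 1 and 2 against -2.06 and -1.61 in pairs 3 and 4. The 3′ excess of these proximal mandible arrays was 1.08 to 1.17 in the first set and 0.07 to 0.16 in the second; its part was not tested. Outside the proximal knockout mandible Gbx2 read 6.55 at most, and it exceeded the filter level on 6 of 24 arrays in all.

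Gbx2 in the control mandible was 5.95 and 4.23 on the arrays labelled proximal and 4.39 and 6.55 on those labelled distal, numbers 1 and 2 in turn. The single control array above the filter level was thus the one labelled distal number 2. The end difference was -1.56 in number 1 and 2.32 in number 2, with a mean of 0.38. The filter asks for 2 arrays, so Gbx2 entered the tested genes only with knockout arrays, on which it was chosen. Its control values are therefore given without a test. In the control maxilla Gbx2 was 5.43 and 4.70 proximally and 4.55 and 3.94 distally, without overlap and all below the filter level, a mean difference of -0.81. In the knockout maxilla the pairs ran from -1.86 to 0.60, and the ends overlapped.

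Sim2 had the largest end difference of all genes in the knockout maxilla. The proximal arrays read 8.21, 9.58, 8.74 and 10.16 and the distal arrays 4.53, 4.28, 5.95 and 6.18. Of the distal arrays 3 of 4 lay below the filter level, so no fold is given. By size the difference of -3.94 ± 1.04 (SD, 4 pairs matched by number only) was ahead of the antisense transcript Dlx1as at -3.23. It was also ahead of the homeobox genes Lhx6 at -3.10 and Dlx1 at -2.76. In the knockout mandible the proximal arrays lay close together at 8.98, 8.93, 8.84 and 8.73, and the distal arrays were lower and more scattered at 7.80, 7.03, 5.69 and 7.59. The mandible difference was -1.85 ± 0.94 (SD, 4 pairs). A second probe set of Sim2 gave smaller differences with the same signs, -1.79 in the knockout maxilla and -0.95 in the knockout mandible.

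In the control maxilla Sim2 varied more between the numbers than between the ends. The control maxilla arrays read 10.10 proximally and 9.97 distally in number 1, and 7.46 and 6.93 in number 2. The end difference within a number was small, -0.13 and -0.53, with a mean of -0.33 ± 1.24 (SE; adjusted p = 0.9999, limma). That error is pooled over all groups, so the opposed control mandible arrays enter it and it is not the spread of the maxilla alone. In the control mandible Sim2 was 9.58 on the array labelled proximal number 1 and 6.18 on that labelled distal number 1, against 6.94 and 9.81 in number 2, differences of -3.40 and 2.87. Its mean over both was -0.27 ± 1.24 (SE; adjusted p = 1).

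Dach2 was higher in the proximal knockout mandible, where its arrays read 8.60, 8.71, 7.91 and 8.14, than in the distal knockout mandible at 7.07, 7.28, 6.64 and 7.04. The 4 pair differences lay close together, from -1.53 to -1.10, with a mean of -1.33 ± 0.19 (SD, 4 pairs). The other Dach2 probe set gave -1.02. No such difference was seen in the knockout maxilla, where the pairs ran from -0.49 to 0.50 and all 8 arrays lay between 7.27 and 8.05. The control mandible differed by -0.57 in number 1 and 0.46 in number 2, and the control maxilla by 0.17 and -0.02. The control means were -0.05 ± 0.24 (SE; adjusted p = 1, limma) in the mandible and 0.08 ± 0.24 (SE; adjusted p = 0.9999) in the maxilla.

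Adarb2 was dim on most arrays and passed the filter level on 5 of 24, among them the 4 proximal knockout mandible arrays at 6.87, 6.83, 6.30 and 6.43. The distal knockout mandible arrays read 5.41, 4.92, 4.90 and 5.24, which gives a difference of -1.49 ± 0.30 (SD, 4 pairs). The other 2 probe sets of Adarb2, dimmer still, gave -0.15 and -0.78. The 5th bright array was the control labelled distal mandible number 2, at 6.79, while the other control mandible arrays lay between 5.35 and 5.79. The control mandible difference was -0.44 in number 1 and 1.44 in number 2. Adarb2 entered the tested genes only through the proximal knockout mandible arrays that it was chosen for, so its control values are given without a test. In the maxilla all arrays of both genotypes lay between 4.70 and 5.78, below the filter level.

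Slitrk4 was the other gene of large proximal excess in the knockout mandible. Its proximal arrays read 8.51, 8.16, 8.86 and 9.25, and its distal arrays 5.50, 5.52, 5.95 and 7.17. The ends did not overlap, and the difference of -2.66 ± 0.42 (SD, 4 pairs) ranked 8 of all genes by size, with 3 of the 4 distal arrays below the filter level. A dimmer probe set of the gene gave -1.29. In the knockout maxilla Slitrk4 was lower distally in all 4 pairs, by -0.22 to -1.65, but the arrays of the ends overlapped.

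Slitrk4 in the control maxilla was 9.13 and 8.99 proximally and 8.75 and 8.48 distally, so that the ends did not overlap; the difference of -0.44 ± 0.40 (SE; adjusted p = 0.9999, limma) was about as large as its error. In the control mandible it was 8.43 and 7.07 on the arrays labelled proximal and 7.86 and 8.21 on those labelled distal, which gives -0.57 in number 1 and 1.14 in number 2. Both control arrays labelled distal were thus above all 4 distal knockout arrays. The control array labelled proximal number 2, at 7.07, was below the highest of these knockout arrays at 7.17, so the gap depends on the end labels. Since the genes were picked for a low or high end in the knockouts, that gap was not tested.

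Gpr25 was near the filter level throughout, with 9 of 24 arrays above it. In the knockout mandible it read 7.18, 7.23, 6.55 and 6.56 proximally and 5.89, 5.76, 5.77 and 5.62 distally, a difference of -1.12 ± 0.32 (SD, 4 pairs). It ranked 156 of all genes by size. In the control mandible the difference ran the other way in both numbers: the arrays labelled proximal read 6.27 and 6.29 and those labelled distal 6.58 and 6.42, without overlap. The control difference was 0.22 ± 0.14 (SE; adjusted p = 1, limma) and did not pass the test. Gpr25 has a single probe set here, so no other one could be set beside it.

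Gria1 was an end gene of the maxilla. Its proximal knockout maxilla arrays read 6.98, 7.60, 7.93 and 7.70 and its distal ones 5.81, 5.33, 5.04 and 5.72, a difference of -2.08 ± 0.71 (SD, 4 pairs) in which all 4 distal arrays lay below the filter level. The other Gria1 probe set gave -2.23. In the knockout mandible the ends overlapped and the mean was -0.31 ± 0.45 (SD, 4 pairs). The 10 measured neuronal genes had median end differences of 1.83, 0.17, 0.99 and -2.02 in knockout maxilla pairs 1 to 4, with 9, 6, 9 and 0 of 10 genes above 0. Gria1 differed by -1.17, -2.27, -2.88 and -1.98 in the same pairs, and the part of neurons in it was not tested.

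In the control maxilla, which had no part in its choice, Gria1 was again lower distally. The proximal arrays read 7.78 and 7.21 and the distal arrays 6.12 and 6.31. The ends did not overlap, and the difference of -1.28 ± 0.33 (SE) had an unadjusted p of 0.00173 but an adjusted p of 0.9999 (limma, Benjamini-Hochberg over all genes), with both numbers of 1 sign (-1.66 and -0.91). The second probe set gave -1.24. Here the neuronal list moved with it, with a median of -1.40 in number 1 and -0.17 in number 2 (10 of 10 and 7 of 10 genes below 0), and its mean level was 8.36 to 11.55 on the proximal and 8.07 to 9.36 on the distal control maxilla arrays. The part of neurons in the control value was not tested. In the control mandible Gria1 differed by -0.51 in number 1 and 0.93 in number 2. The mandible and maxilla effects differed by 1.49 ± 0.47 (SE; unadjusted p = 0.00681, adjusted p = 1, limma). That difference rests on control mandible arrays whose 2 numbers ran in opposite directions.

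Masp1 was the gene of clear distal excess. Its distal knockout mandible arrays read 8.82, 9.19, 8.88 and 7.95 against 6.45, 6.71, 7.15 and 7.11 proximally, a difference of 1.86 ± 0.75 (SD, 4 pairs), or 3.62-fold. Pairs 1 and 2 differed by 2.37 and 2.48 and pairs 3 and 4 by 1.73 and 0.84. The second brightest probe set of the gene gave 2.04 and 3 dim ones 0.26 to 0.97. In the knockout maxilla the mean was 0.04 ± 0.38 (SD, 4 pairs), and all 8 arrays lay between 6.87 and 7.52.

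The control mandible values of Masp1 turned with the number, 7.56 and 8.03 on the arrays labelled proximal and 8.07 and 7.42 on those labelled distal. The differences of 0.51 and -0.61 average to -0.05 ± 0.30 (SE; adjusted p = 1, limma). In the control maxilla the proximal arrays at 7.55 and 7.10 were above the distal ones at 7.08 and 7.04, a difference of -0.26 ± 0.30 (SE; adjusted p = 0.9999) within its error.

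Asb4 was the brightest of the 10, at 9.33 to 12.29, and differed between the ends in opposite directions in the knockout jaws. In the maxilla the proximal knockout arrays read 10.65, 11.11, 12.29 and 12.08 and the distal arrays 9.33, 9.75, 9.93 and 10.32, a difference of -1.70 ± 0.48 (SD, 4 pairs), or 3.25-fold. In the mandible the distal arrays read 11.35, 11.26, 12.04 and 11.88 and the proximal arrays 11.05, 10.68, 11.19 and 11.33. All 4 mandible pairs were above 0, with a mean of 0.57 ± 0.22 (SD, 4 pairs), but the arrays overlapped between 11.26 and 11.33. The second Asb4 probe set, equally bright, gave -1.52 and 0.66.

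In the control maxilla Asb4 was 11.56 and 10.79 proximally and 10.54 and 10.37 distally. The ends did not overlap, and the difference of -0.72 ± 0.23 (SE) had an unadjusted p of 0.00699 and an adjusted p of 0.9999 (limma), with -1.02 in number 1 and -0.42 in number 2. The skeletal muscle list differed by a median of -1.84 in number 1 and 0.09 in number 2 of the control maxilla, and its part was not tested. The control mandible hardly differed, at 11.05 and 10.92 against 10.80 and 10.90, or -0.13 ± 0.23 (SE; adjusted p = 1). Unlike most of the 10 genes, Asb4 did not turn its sign between the control mandible numbers, at -0.25 and -0.02.

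Greb1l had small end differences, without overlap in either knockout jaw. In the knockout maxilla its proximal arrays read 8.36, 8.61, 8.81 and 8.11 and its distal arrays 7.78, 7.82, 7.43 and 7.57, a difference of -0.82 ± 0.39 (SD, 4 pairs). In the knockout mandible it read 7.48, 7.57, 7.51 and 7.58 proximally and 7.62 to 8.10 distally, so that it was higher distally by 0.42 ± 0.26 (SD, 4 pairs); pair 4 differed by 0.03. A second, dimmer probe set gave 0.44 in the knockout mandible and -0.26 in the knockout maxilla, and 0.03 in the control mandible and -0.06 in the control maxilla. The control mandible arrays labelled proximal read 7.62 and 7.77 and those labelled distal 7.62 and 7.24, so that number 1 differed by under 0.01 and number 2 by -0.54. The control means were -0.27 ± 0.20 (SE; adjusted p = 1, limma) in the mandible, which rests on number 2, and -0.10 ± 0.20 (SE; adjusted p = 0.9999) in the maxilla.

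**Figure D3:**
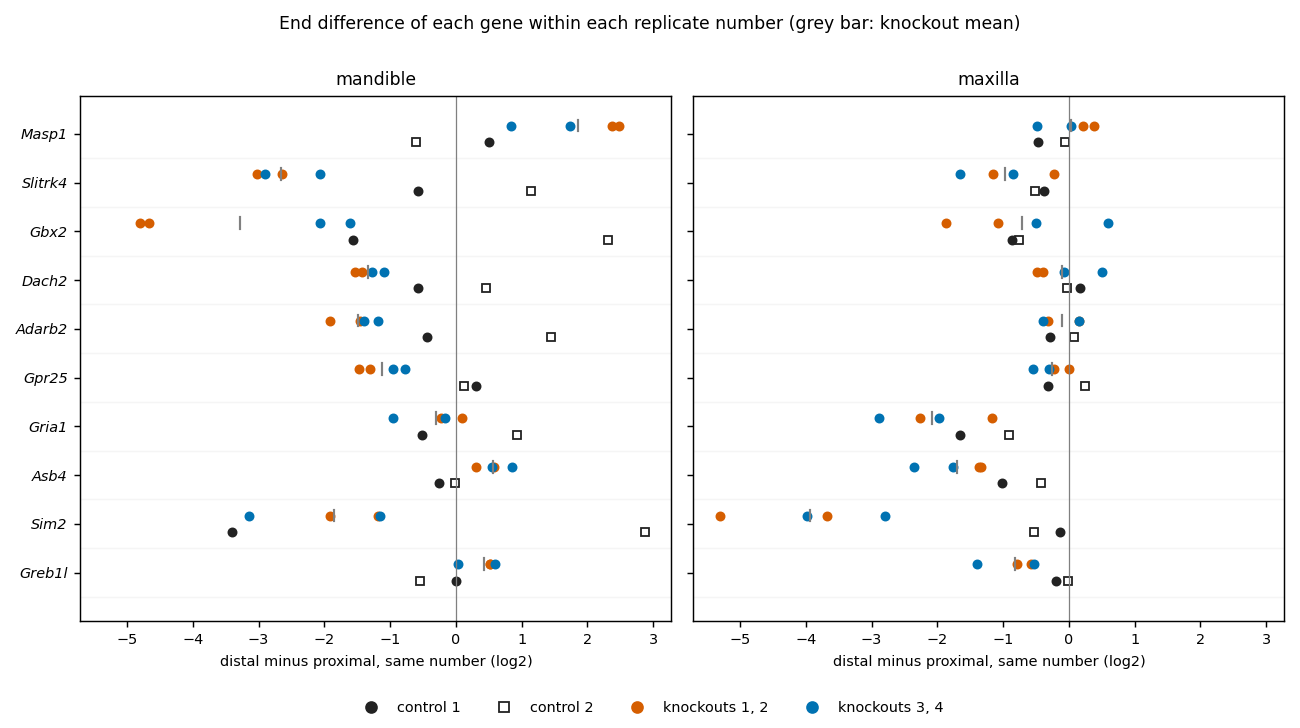
Distal minus proximal difference (log2) of each of the 10 genes for arrays of like number, in the mandible (left) and maxilla (right); orange and blue circles are knockout pairs 1 and 2 and pairs 3 and 4, grey bars their mean, black circles control number 1 and open squares control number 2. Mandible controls of number 2 lie on the other side of 0 from the knockout mean for Gbx2 (2.32 against -3.28) and Sim2 (2.87 against -1.85), while in the maxilla both control numbers of Gria1 and Asb4 lie on the knockout side.

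Set side by side, the control ends without overlap were those of 3 genes in the mandible (Gpr25, Asb4 and, by under 0.01, Greb1l; 16.3% of all genes) and of 5 in the maxilla (Masp1, Slitrk4, Gbx2, Gria1 and Asb4; 21.5% of all genes). In the mandible all 3 ran opposite to the knockouts, Greb1l on the probe set used but not in the mean of its second one. In the maxilla Slitrk4, Gbx2, Gria1 and Asb4 ran the same way as the knockout mean and Masp1 did not. Of the 10 genes, 8 had the knockout sign in control maxilla number 1 and 7 in number 2, where 54.2% and 44.8% of all genes did. Over the 7 other genes that differed between the knockout maxilla ends these shares were 100% and 28.6%. The counts of the 10 genes include Gbx2 and Adarb2, whose control maxilla arrays all lay below the filter level. They are a description without a test. In the mandible the counts were 7 and 0, so in this the jaws differ chiefly in number 2. Control mandible number 2 ran opposite to number 1 for most genes, and whether labels or dissections differ there was not tested.

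The jaws were compared in the controls as well, over both ends. The mean of both ends does not depend on which end label is right, but the errors and p-values do, since the spread is taken around the labelled ends. Slitrk4 was lower in the mandible (7.07 to 8.43 over 4 arrays) than in the maxilla (8.48 to 9.13), without overlap, by -0.95 ± 0.28 (SE; adjusted p = 0.170, limma). Gpr25 was higher in the mandible (6.27 to 6.58) than in the maxilla (5.70 to 6.22), also without overlap, by 0.41 ± 0.10 (SE; adjusted p = 0.0751). These were 2 of 10 genes, where 7.5% of all genes did not overlap between the control jaws. Masp1 differed by 0.58 ± 0.21 (SE; adjusted p = 0.268), with overlapping arrays. None of the 10 passed the threshold, and without control number 2 the value of Gpr25 was 0.57 with an adjusted p of 0.0176, within a range of 0.0176 to 0.556 over all alternatives.

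In the knockout jaws none of the 10 was without overlap between mandible and maxilla. The share of all genes without overlap there was not counted, so nothing is read from this. The genes were chosen for wide end differences within these jaws, so overlap between the jaws follows in part from the choice. The knockout mandible ranged from 4.04 to 8.88 for Gbx2 and from 5.50 to 9.25 for Slitrk4, and the knockout maxilla from 4.28 to 10.16 for Sim2. The levels averaged over the 4 parts, number by number, were closest to each other for Masp1, from 7.40 to 7.57 over the 6 control and knockout numbers. For Slitrk4 they were 8.54 and 8.19 in controls, 7.44 and 7.33 in knockouts 1 and 2, and 8.08 and 8.47 in knockouts 3 and 4. Asb4 was 10.99 and 10.75 in controls, 10.60 and 10.70 in knockouts 1 and 2, and 11.37 and 11.40 in knockouts 3 and 4. The knockout array sets therefore lie on different sides of the controls for Asb4, and these levels are given without a test.

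Likeness between genes was measured as Pearson's r over the 24 arrays after the mean of each genotype and number had been subtracted, as a description over arrays that share parts and array sets. Of these arrays 16 are the knockout arrays on which the genes were chosen, so likeness between members follows in part from that choice. Gbx2, Adarb2 and Gpr25 formed a close group, with r = 0.90 for Gbx2 and Adarb2, 0.86 for Adarb2 and Gpr25 and 0.81 for Gbx2 and Gpr25. Gria1 was alike to Asb4 (0.81) and Sim2 (0.80). Masp1 and Slitrk4 were opposed at -0.90. Dach2 was also opposed to Masp1, at -0.83, and alike to Slitrk4, at 0.78.

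Over all genes tested, those most like each member were partly members themselves. Gbx2 was most like Adarb2 and Prrt4 (both 0.90), Gpr25 most like Prrt4 (0.88) and Adarb2 (0.86), and Adarb2 most like Ghrh (0.93) and the antisense transcript Dlx4os (0.91). Sim2 was most like Barx1 (0.89), the proximal and posterior homeobox gene, and Shisa2 (0.86). Asb4 was most like Gria1 (0.81) and Barx1 (0.77), and Gria1 most like Asb4 and Sorcs3 (both 0.81). The remaining pairs were Syt6 (0.90) and P4ha2 (0.89) for Masp1, Slc35f1 and Cntn3 (both 0.85) for Slitrk4, Ptprj and Scn2b (both 0.88) for Dach2, and Pde7b (0.81) and Slc1a3 (0.79) for Greb1l.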

How the data were processed

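The deposited table holds log2 expression values that the authors made with RMA, per the submitters' processing notes; its version, and whether every array was part of 1 run, are not given in the sources used here. Of 45101 probe sets, 64 control features served only to describe the arrays, 34945 had 1 gene symbol, 932 several and 9160 none. Each of the 18193 genes was represented by its probe set with the highest mean over 24 arrays, and 13837 genes above a log2 level of 6.07 (the 40th percentile) on at least 2 arrays were kept. Array medians were 6.76 to 6.89. No arrays were duplicates (highest r between arrays 0.9953).

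Comparisons used limma 3.58.1 in R 4.3.3 (lmFit, eBayes without trend, 2-sided) on all 24 arrays with 12 group means, namely the 4 parts in controls, in knockouts 1 and 2 and in knockouts 3 and 4, adjusted over all 13837 genes by Benjamini-Hochberg, with calls at 0.05. The knockouts were split by the control probe sets, not by the genes described. Whether replicate numbers pair the samples was checked by the correlation of the deviations of like-numbered arrays from the 12 group means: 0.21 to 0.22 in the knockout mandible, where the numbers were taken to pair the ends (the deviations of 2 arrays mirror each other, so these are 2 independent values, and like-numbered ends shared a sex), -0.14 to 0.07 in the knockout maxilla, -0.68 in the control mandible and 0.26 in the control maxilla, where they were not. SD values are over differences between arrays of like number, in the maxilla too, where such pairs are matched by number only. The main fit held no term for the number. The control maxilla value of 0.26 was no lower than the knockout mandible values, so this check alone does not decide the pairing. Named are the 10 genes, the 2 genes most like each, the first 3 other genes by knockout end difference in each jaw and, from the marker lists, genes on which a count turns. The fits were tested on simulated data. The 10 genes and the lists were chosen with earlier results of these data known. Alternatives were other groupings, a replicate block, array centring, no filter, the mean of all probe sets, an RNA quality covariate and left-out numbers; a crossed block and fits with 1 knockout array set were added after the data were examined.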

Additional observations from a re-analysis of the deposited data

Results flagged for a closer look

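Some end differences ran one way in every pair of a group and the other way in every pair of another. None of these contrasts was itself tested, and the share of all genes with such a pattern was not counted. In the mandible, Gpr25 had a control mean of 0.22 and a knockout mean of -1.12, Asb4 of -0.13 and 0.57, and Greb1l of -0.27 and 0.42 (distal minus proximal, log2). For Greb1l this rests on single pairs: control number 1 differed by under 0.01 and number 2 by -0.54, and knockout pair 4 by 0.03. The mean of its second probe set was 0.03 in the control mandible and 0.44 in the knockout mandible, so the opposite direction was not seen there. The control mandible arrays behind these values are those whose 2 numbers ran in opposite directions for most genes. Between the knockout jaws, Asb4 had a mean of 0.57 in the mandible and -1.70 in the maxilla, and Greb1l 0.42 and -0.82. Among the 40 groups of 4 knockout arrays of the 10 genes, 0 held an array far from the other 3 by Dixon's criterion.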

How the results depend on the processing

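Control number 2 or 1 decides the sign of the control mandible difference of 7 genes. Leaving out each number in turn gave ranges of -0.61 to 0.51 for Masp1, -0.57 to 1.14 for Slitrk4, -1.56 to 2.32 for Gbx2, -0.57 to 0.46 for Dach2, -0.44 to 1.44 for Adarb2, -0.51 to 0.93 for Gria1 and -3.40 to 2.87 for Sim2. In the control maxilla it turned Dach2 (-0.02 to 0.17), Adarb2 (-0.28 to 0.08) and Gpr25 (-0.31 to 0.24), and between the control jaws Adarb2 (-0.08 to 0.66), Asb4 (-0.13 to 0.33) and Sim2 (-2.16 to 1.18). Among knockout values, the small maxilla differences of Masp1, Gbx2, Dach2 and Adarb2 changed sign with some knockout arrays left out; with knockouts 3 and 4 as the only knockouts Gbx2 was 0.05, against -0.71 with all. No other sign of the 10 genes turned under the alternatives run. A call appeared once, that of Gpr25 between the control jaws without control number 2. With all probe sets averaged, the knockout mandible differences of Slitrk4 and Adarb2 became -1.97 and -0.81 and the knockout maxilla difference of Sim2 -2.86; the cause was not tested.

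Counts of called genes moved more. With 1 number left out they ranged from 0 to 59 for control mandible ends, 0 to 327 for control maxilla ends, 0 to 111 for control ends over both jaws, 0 to 102 for the difference between the jaws, 13 to 395 for control jaws, 10 to 431 for knockout mandible ends, 1 to 1168 for knockout maxilla ends and 150 to 1579 for knockout jaws. Without control number 1, 59 genes were called between the control mandible ends, and without number 2, 34; each end is then 1 array, assumed to vary like the other groups. With the knockout array sets pooled the counts were 25 for control jaws, 326 for knockout jaws, 8 for knockout mandible ends and 1 for knockout maxilla ends. With knockouts 1 and 2 as the only knockouts they were 13, 279, 46 and 0 in that order, and with knockouts 3 and 4 28, 49, 2 and 1. With the controls alone 0 genes were called between the control jaws, 1123 at an unadjusted level. The comparisons of knockouts with control called 8029 genes for numbers 1 and 2 (6474 to 7614 with a number left out) and 642 for numbers 3 and 4 (16 to 1128); with the RNA quality covariate these were 0 and 1.

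The replicate block gave 63 genes for control jaws, 41 for knockout mandible ends and 5 for knockout maxilla ends, and 0 in the control ends. It changed the side of the threshold of none of the tested control values of the 10 genes. With the control distal mandible numbers crossed in the block, 0 genes were called in each control end comparison. For the comparisons of knockouts with control, no fit with the block or with pooled array sets could be made.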
